A study of Mus musculus with 18 samples.

Results

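The mature arms of miR-124 and miR-9, miRNAs best known from neurons, were examined in mouse adrenal gland and in IGF2BP1-driven neuroblastoma. They are the 4 rows mmu-miR-124-3p, mmu-miR-124-5p, mmu-miR-9-5p and mmu-miR-9-3p (mmu, for mouse, is dropped hereafter), picked by name out of the 1966 miRNAs of the small RNA table. They were chosen because earlier results of these data showed them higher in tumors than in adrenal gland, so their difference from adrenal gland is described here without a test.

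The small RNA of 3 groups was sequenced. AG comprised 3 adrenal glands of mice without Cre (genotype CRE -). TI comprised 7 tumors of R26 IGF2BP1 mice, of which 6 were labelled IGF2BP1 +/+, CRE + and 1 was labelled IGF2BP1 +/-, CRE +. TIM comprised 8 tumors of R26 IGF2BP1/MYCN mice, labelled IMP1/MYCN, CRE +, with IMP1 being another name of IGF2BP1. Both transgenes sit at the Rosa26 locus behind a stop cassette that iCre removes, and the Dbh promoter drives iCre in adrenal gland and peripheral sympathetic nerves. The IGF2BP1 transgene lacks its own 3'UTR, and so does the MYCN transgene. Dissection sites were given as tumor for 6 TI and 5 TIM samples, as tumor adrenal gland for 1 TI and 2 TIM samples and as tumor spine for 1 TIM sample. The study places most R26 IGF2BP1 tumors in the lower abdomen and proposes sympathetic nerves as their potential origin. Adrenal gland is therefore not a matched tissue of origin for every tumor. The labels give no age of a single mouse. The study describes a shorter survival for R26 IGF2BP1/MYCN than for R26 IGF2BP1 mice. It also reports no wildtype Rosa26 locus in R26 IGF2BP1/MYCN mice, so IGF2BP1 sits on 1 allele there, unlike in IGF2BP1 +/+ mice. Age, dissection site, IGF2BP1 copies and MYCN therefore cannot be told apart between TIM and TI. The columns of the table name the group but not the mouse, so libraries are numbered by their order in the table, and the heterozygous or spinal tumor cannot be told apart from the others. Each library is taken as 1 sample, and p-values measure the spread between these samples. The study describes more tumors than animals for R26 IGF2BP1/MYCN, so some TIM libraries may come from the same mouse.

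miRNAs are cut from hairpin precursors by Drosha and Dicer, and one or both arms of the hairpin are loaded onto Argonaute proteins to repress mRNAs that pair with the seed near the 5' end. miR-124 is among the most abundant miRNAs of the brain, accumulates when neurons differentiate and represses non-neuronal transcripts such as that of the splicing factor PTBP1. miR-9 is made in neural progenitors and neurons, its 5p arm represses the REST transcript, and its 3p arm (also named miR-9*) and miR-124 both act on the BAF53a subunit of a chromatin remodeling complex. The MYC family has been described to activate miR-9 transcription in cancer cells. IGF2BP1 is an RNA-binding protein that shields mRNAs from miRNA-directed decay.

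The sequences of the miR-9 arms are shown because both arms of one hairpin were counted and because neither shares its seed with another miRNA. The capitals mark the seed, bases 2 to 8, and the sequences are those of RefSeq for GRCm38.p6.
miR-9-5p: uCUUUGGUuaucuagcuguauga
miR-9-3p: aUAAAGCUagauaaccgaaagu
Of 1675 miRNAs of the table with a sequence in RefSeq, only miR-9-5p itself carried the first seed and only miR-9-3p the second. Each mature miR-9 arm is made from 3 hairpins of mm10, Mir9-1 at chr3:88215598-88215686, Mir9-2 at chr13:83738814-83738885 and Mir9-3 at chr7:79505264-79505353. They lie on the plus strand within the long non-coding RNA genes Gm3764, C130071C03Rik and Mir9-3hg, respectively. The mature arms of miR-124 also have 3 hairpins, Mir124a-1 at chr14:64590657-64590741 within Mir124a-1hg, Mir124a-2 at chr3:17795662-17795770 within Mir124-2hg, and Mir124a-3 at chr2:180894040-180894107 with no annotated gene around it. Reads of a mature arm cannot be assigned to one of its hairpins, and how reads with several matches were counted is not given in the sources used here.

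Values are CPM, reads scaled to a common total, on library totals multiplied by the TMM factor, a scaling that sets the bulk of miRNAs level between libraries. Libraries held 21644743 to 23332704 miRNA reads in AG, 11802837 to 21268124 in TI and 11641696 to 23435621 in TIM, and 3 reads corresponded to 0.101 to 0.272 CPM over all libraries. Such limits cover counting error only. The share of miR-148a-3p alone ran from 2.29% to 61.9% of the reads in TI, and TMM factors ran from 0.700 to 1.85 in tumors, so CPM depend on the scaling. TI library 5 stood apart, with 2.29% miR-148a-3p where the TI median was 45.2%. TIM library 1 carried skeletal muscle miRNAs, summing to 22972 CPM where the highest other tumor library had 344 CPM. In AG, Pearson's r on a log2 scale was 0.996 between libraries 2 and 3, but 0.984 and 0.980 between these and library 1. AG library 1 was lowest of AG in miR-124-3p, miR-124-5p, miR-9-5p and miR-9-3p. It had 2535 CPM of miR-218-5p and 8915 CPM of miR-375-3p, where AG libraries 2 and 3 had at least 6678 and 26553 CPM. In miR-128-3p it was not the lowest, and all ratios to the AG mean include it.

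miR-124-3p, the guide arm of miR-124, was scarce in adrenal gland and of intermediate abundance in tumors. In AG it measured 2.17, 4.90 and 7.08 CPM, on 47, 105 and 153 reads. In TI its lowest, median and highest values were 34.1, 210.1 and 493 CPM, and in TIM they were 56.2, 127 and 728 CPM. All 7 TI and all 8 TIM libraries lay above all 3 AG libraries. AG averaged 4.72 ± 2.46 CPM, TI 212 ± 157 CPM and TIM 242 ± 255 CPM (mean ± SD, with n = 3, 7 and 8 for these groups throughout), a ratio of means of 44.9 for TI and 51.3 for TIM. Ranked by level within a library, it moved from place 385 to 492 in AG to place 96 to 277 in TI and 87 to 225 in TIM. The levels of the tumors varied widely, and the highest library exceeded the lowest 14.5-fold in TI and 12.96-fold in TIM.

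miR-124-5p, the opposite arm of the same hairpin, was at the limit of detection in adrenal gland. It had 0, 4 and 1 reads in AG, hence 5 in all, for which an exact Poisson interval at 95% spans 1.62 to 11.7 reads. It measured 2.297, 9.99 and 22.9 CPM as the lowest, median and highest of TI, and 11.6, 15.4 and 28.2 CPM in TIM. The lowest tumor library exceeded the highest AG library 12.3-fold in TI and 62.3-fold in TIM. TI averaged 11.6 ± 9.10 CPM and TIM 17.0 ± 5.66 CPM (mean ± SD). Since it was under 1 CPM in every AG library, this arm entered the fit across miRNAs only through the tumors.

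miR-9-5p was the most abundant of the 4 arms in every library. In AG it measured 362, 524 and 582 CPM. Its lowest, median and highest values were 3748, 6478 and 13089 CPM in TI and 4330, 9149 and 18823 CPM in TIM, so that all tumor libraries lay above AG. AG averaged 489.6 ± 114 CPM, TI 7334 ± 3148 CPM and TIM 9462 ± 4519.8 CPM (mean ± SD), which gives ratios of 14.98 and 19.3 to AG. It stood at place 91 to 104 among the miRNAs of an AG library, at place 14 to 33 in TI and at place 12 to 35 in TIM.

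miR-9-3p had nearly the same level in the 3 adrenal glands, 2.54, 2.66 and 2.68 CPM on 55, 57 and 58 reads. In TI its lowest, median and highest values were 16.3, 41.6 and 88.9 CPM, and in TIM 20.6, 39.6 and 65.6 CPM. No tumor library overlapped with AG. AG averaged 2.63 ± 0.0749 CPM, TI 48.2 ± 26.4 CPM and TIM 40.8 ± 13.1 CPM (mean ± SD), with ratios of 18.3 and 15.5 to AG.

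**Figure D1:**
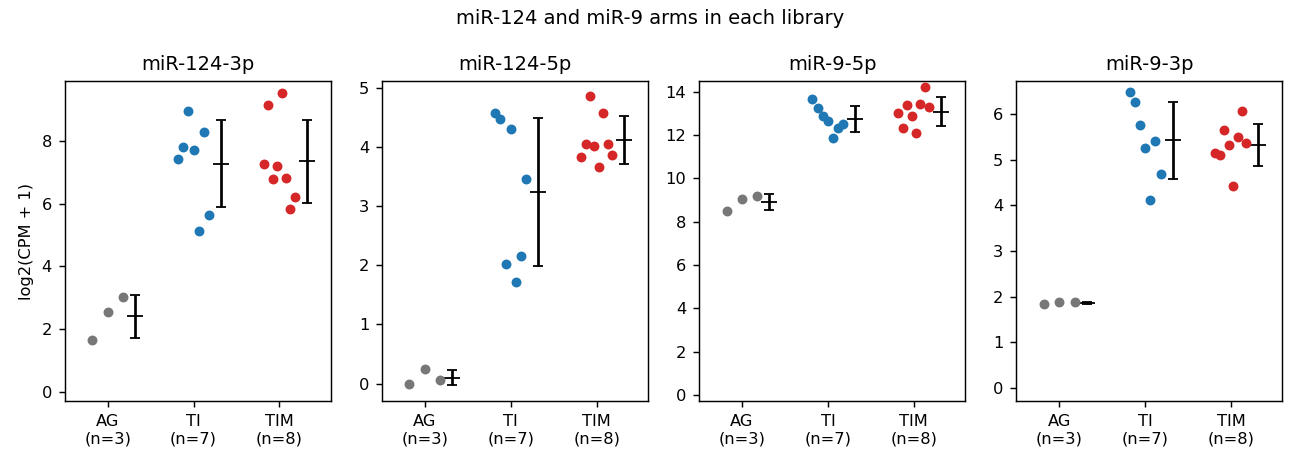
Levels of the 4 arms as log2(CPM + 1) on the vertical axis for each library of AG (grey), TI (blue) and TIM (red), with black bars for the mean and SD of a group. Every tumor point lies above the AG points in each panel, and TI and TIM overlap throughout.

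All 4 arms lay above AG in every TI and every TIM library, as did 22.0% of the 726 tested miRNAs for TI and 21.1% for TIM. The arms were chosen as higher in tumors, so this count and the places below only describe them. miR-124-5p was moreover among the tested miRNAs only through the tumors. On the log2(CPM + 1) scale the differences from AG were 4.86 in TI and 4.93 in TIM for miR-124-3p, 3.14 and 4.01 for miR-124-5p, 3.82 and 4.16 for miR-9-5p and 3.57 and 3.46 for miR-9-3p. The median over all tested miRNAs was -0.01 in TI and 0.18 in TIM. Among the 726 differences, from the highest down, the arms took places 10, 45, 23 and 29 in TI and 3, 9, 7 and 18 in TIM, in the same order. The pseudocount understates the change of low miRNAs, and for miR-124-5p the log2 difference depended on it most. It was 7.05 in TI and 7.60 in TIM by edgeR on reads recovered from the CPM.

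Adrenal gland and tumor also differed in miRNAs of other cells. Of all 726 tested miRNAs, 29.3% were lower than in AG in TI and 25.9% in TIM (limma, adjusted p under 0.05). Counting both directions, 55.8% differed in TI and 51.4% in TIM. Both endothelial markers, miR-126a-3p and miR-126a-5p, were lower in tumors (limma, adjusted p under 0.05), with a sum of 38529 to 46092 CPM in AG, 1704 to 6736 CPM in TI and 2428 to 8943 CPM in TIM. The hepatocyte miRNA miR-122-5p was at 779.8 to 2592 CPM in AG and at 4.25 to 82.4 CPM in tumors. Of 3 leukocyte markers, 2 were lower in TI and 3 in TIM. Of 2 smooth muscle markers, 1 was lower in TI and 2 in TIM, and of 2 stromal markers, 2 were lower in TI and 1 in TIM. None of the 2 oligodendrocyte, 3 neuroendocrine, 2 erythroid, 3 skeletal muscle and 3 epithelial markers passed in either tumor type. The neuroendocrine markers miR-375-3p, miR-7a-5p and miR-7b-5p summed to 49424 to 116747 CPM in AG, 28860 to 271810 CPM in TI and 34541 to 244238 CPM in TIM. The part of cell composition in the levels of miR-124 and miR-9 was not tested, and in such bulk samples more cells of a type cannot be told apart from more miRNA per cell.

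TIM was then compared with TI, a comparison that did not enter the choice of the arms. The groups differ in MYCN and dissection sites, in IGF2BP1 copies (apart from the TI tumor labelled IGF2BP1 +/-) and possibly in age. These cannot be told apart. In limma on log2(CPM + 1), 0 of the 4 arms passed an adjusted p of 0.05, where 38 of the 726 miRNAs (5.23%) did, 3.44% being higher in TIM and 1.79% lower. None had an unadjusted p under 0.05, and edgeR and DESeq2 on recovered reads also called 0. The difference of miR-124-3p was 0.07 with a 95% interval of -1.22 to 1.36 (adjusted p = 0.97 from limma). For miR-9-5p it was 0.34 with an interval of -0.31 to 0.99 (adjusted p = 0.56 from limma), and without the TMM factor it was 0.90 (adjusted p = 0.053 from limma). For miR-9-3p it was -0.10 with an interval of -0.80 to 0.59 (adjusted p = 0.90 from limma). The widest gap was that of miR-124-5p, higher in TIM by 0.87 with an interval of -0.02 to 1.76 (adjusted p = 0.23 from limma). With CPM computed without the TMM factor this difference was 1.38 and passed (adjusted p = 0.042 from limma), a scaling under which the median of all tested miRNAs shifted by 0.43 toward TIM.

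The spread within a tumor type was itself different between the arms. In TI the coefficient of variation was 74.3% for miR-124-3p, 78.1% for miR-124-5p, 42.9% for miR-9-5p and 54.8% for miR-9-3p. In TIM it was 105%, 33.3%, 47.8% and 32.1%, in the same order. TI library 5 had the lowest level of all 4 arms in TI. Without it, the TI means were 241 ± 149 CPM for miR-124-3p, 13.2 ± 8.89 CPM for miR-124-5p, 7932 ± 2982 CPM for miR-9-5p and 53.5 ± 24.5 CPM for miR-9-3p (SD, n = 6). TIM library 5 had the highest miR-124-3p and the lowest of the other 3 arms in TIM, and TIM library 7 had the lowest miR-124-3p and the highest miR-9-5p and miR-9-3p.

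The arms of miR-9 kept a similar proportion, while those of miR-124 did not. The ratio of arms is compared between libraries only, since ligation differs between sequences and a ratio of reads is not one of molecules. It does not depend on library scaling apart from the pseudocount. miR-9-5p exceeded miR-9-3p 143- to 217-fold in AG, 124- to 232-fold in TI and 151- to 287-fold in TIM. miR-124-3p exceeded miR-124-5p between 3.61- and 160-fold in the 15 tumor libraries, with a median of 10.4. The highest ratios were 160 in TI library 3, 89.3 in TI library 6, 62.7 in TIM library 5 and 36.0 in TIM library 2, and the other 11 tumor libraries ranged from 3.61 to 14.8. The 2 TI libraries had 35 and 38 reads of miR-124-5p beside 5598 and 3395 reads of miR-124-3p. The 2 TIM libraries had 260 and 464 reads of miR-124-5p beside 16310 and 16693 of miR-124-3p, so the 5p arm was not near its detection limit there. These 4 libraries also had the 4 highest levels of miR-124-3p. In AG the ratio was 26.3 and 153 in the 2 libraries with reads of miR-124-5p, from 4 reads and 1 read.

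**Figure D2:**
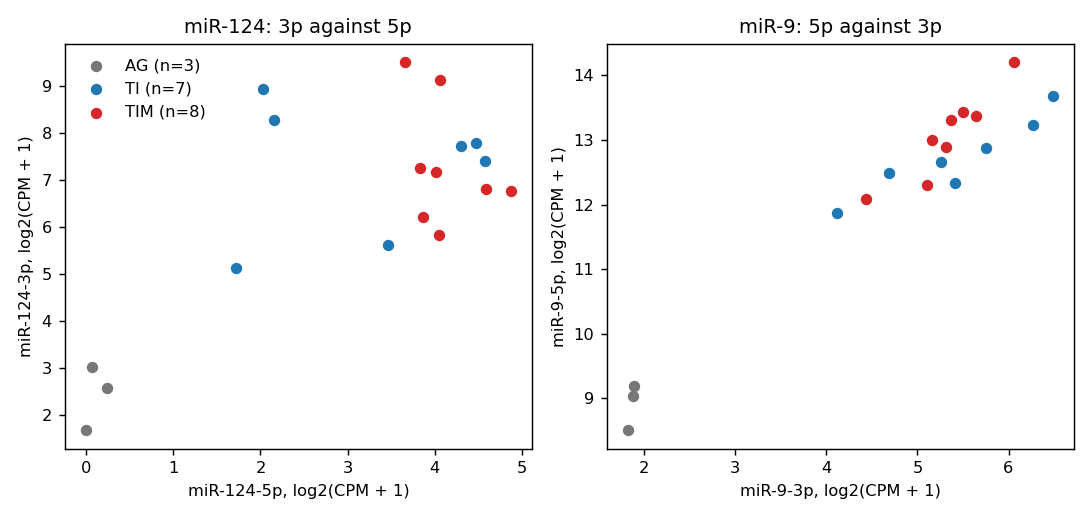
Level of one arm against the other, both as log2(CPM + 1), for miR-124 (left) and miR-9 (right), with 1 point per library of AG, TI and TIM. The miR-9 points follow one line, whereas tumor libraries of similar miR-124-5p differ widely in miR-124-3p.

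Between tumor types the log2 ratio of miR-9-5p to miR-9-3p was higher in TIM by 0.44. The two-sided exact permutation test over 6435 arrangements gave p = 0.024, and 0.071 after Benjamini-Hochberg adjustment over the 3 ratios tested. It therefore did not pass. It did (exact permutation test, adjusted p = 0.036, 0.034 and 0.026) when TI library 5, TI library 7 or TIM library 2 was left out. Each time the difference was 0.52. In the other 12 of 15 such runs it did not pass (exact permutation test, adjusted p up to 0.15). Nor did it pass under any of 5 other alternatives. The log2 ratio of miR-124-3p to miR-124-5p differed by -0.80 (TIM minus TI, exact permutation test, p = 0.37, adjusted p = 0.55). That of miR-124-3p to miR-9-5p differed by -0.27 (exact permutation test, p = 0.76, adjusted p = 0.76).

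To place these spreads among other miRNAs, the SD of the log2 arm ratio over the 15 tumor libraries was computed for all 212 miRNA names with both arms tested. It was 1.63 for miR-124 and 0.385 for miR-9, against a median of 0.582. Only 5 of the 212 names had a larger SD than miR-124, and 32 had a smaller one than miR-9. Of the 139 names in which both arms averaged at least 3 CPM in tumors, 1 had a larger SD than miR-124. Over these tumor libraries, which include both types, the arms of miR-124 correlated with r = -0.003 and those of miR-9 with r = 0.82, where the median over the 212 names was 0.72. These are descriptions. All miRNAs of a library share its scaling factor, which enters r but, apart from the pseudocount, not the ratio.

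**Figure D3:**
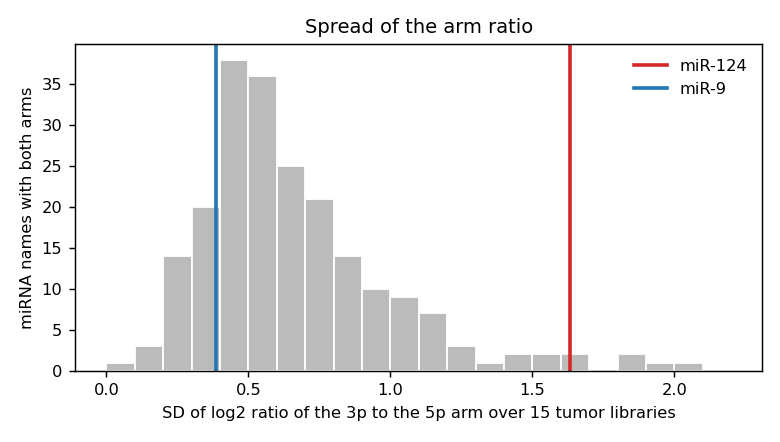
Histogram of the SD, over 15 tumor libraries, of the log2 ratio of the 3p to the 5p arm for 212 miRNA names with both arms tested (bars count names). miR-124 (red line, 1.63) lies in the upper tail, and miR-9 (blue line, 0.385) lies below the median of 0.582.

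Within each tumor type, 6 relations between arms were tested by exact permutation of pairings on log2(CPM + 1). The 2 arms of miR-9 rose together. In TI their r after Pearson was 0.93 (exact p = 0.0032, adjusted p = 0.0063) and their rho after Spearman was 0.89 (exact p = 0.012, adjusted p = 0.025). In TIM r was 0.93 (exact p = 0.00040, adjusted p = 0.0019) and rho was 0.95 (exact p = 0.0011, adjusted p = 0.0068). Without the 2 libraries farthest from the median of miR-9-5p, r was 0.81 in TI and 0.83 in TIM. The arms of miR-124 showed no such relation that passed. In TI r was 0.10 (exact p = 0.80, adjusted p = 0.80), and in TIM r was -0.36 (exact p = 0.39, adjusted p = 0.47) and rho was -0.40 (exact p = 0.33, adjusted p = 0.49). Without TI libraries 5 and 7, r of the miR-124 arms in TI became -0.91, and without TIM libraries 2 and 5 it became 0.07 in TIM, so these values rest on few libraries.

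Within TIM, libraries with more miR-124-3p had less miR-9-5p. TIM libraries 2 and 5 formed a pair of their own, with 562 and 728 CPM of miR-124-3p and 5025 and 4330 CPM of miR-9-5p. The other 6 TIM libraries had 56.2 to 152 CPM of miR-124-3p and 7599 to 18823 CPM of miR-9-5p, and all 6 therefore exceeded the pair in miR-9-5p. Among these 6, r was -0.88 (exact p = 0.033) and rho was -0.71 (exact p = 0.14). With all 8 libraries r was -0.94 (exact p = 0.00064, adjusted p = 0.0019) and rho was -0.88 (exact p = 0.0072, adjusted p = 0.022), values to which the separate pair contributes. TIM libraries 3 and 6 were the most alike pair of libraries within a tumor type, and with their mean counted as 1 library r was -0.94. The relation depended on the scaling, and with CPM computed without the TMM factor r was -0.54 (exact test, adjusted p = 0.34).

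In TI the relation of miR-124-3p with miR-9-5p did not pass, with r of 0.49 (exact p = 0.27, adjusted p = 0.40) and rho of 0.32 (exact p = 0.50, adjusted p = 0.60). There r became -0.52 without TI libraries 5 and 7, which were low in miR-124-3p. The difference between TI and TIM in this relation was not tested. Of 4 relations of these miRNAs with sequencing depth in TI and TIM, none passed (r from -0.56 to 0.48, adjusted p = 0.44 or more by exact permutation). Within TIM rho with depth was 0.60 for miR-124-3p (exact p = 0.13, adjusted p = 0.19) and -0.67 for miR-9-5p (exact p = 0.083, adjusted p = 0.19), opposite in sign, and the part of depth in their relation was not tested. Within TI rho was -0.64 for miR-124-3p (exact p = 0.14, adjusted p = 0.19) and 0.11 for miR-9-5p (exact p = 0.84, adjusted p = 0.84).

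**Figure D4:**
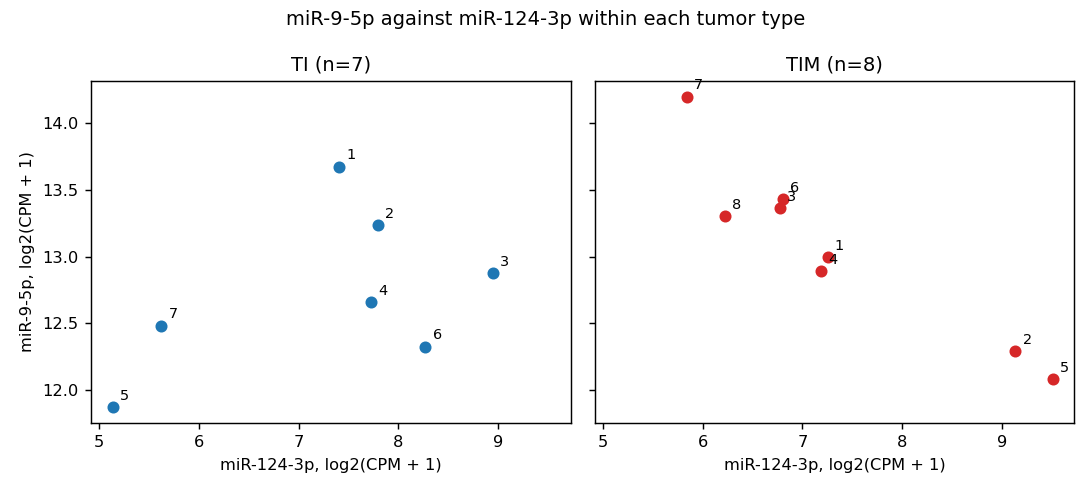
miR-9-5p against miR-124-3p, both as log2(CPM + 1), for the 7 TI libraries (left) and the 8 TIM libraries (right), with library numbers beside the points. In TIM, libraries 2 and 5 lie apart at high miR-124-3p and low miR-9-5p, and in TI, libraries 5 and 7 lie at low miR-124-3p.

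A further 13 miRNAs enriched in neurons were examined beside the 4 arms, all of which were tested. In TI, where 55.8% of all tested miRNAs differed from AG in limma, 5 of them were higher than in AG (miR-137-3p, miR-138-5p, miR-153-3p, miR-218-5p and miR-488-3p) and 0 were lower, against 26.4% higher and 29.3% lower of all. In TIM, where 51.4% of all differed, 7 were higher (miR-128-3p, miR-135a-5p, miR-137-3p, miR-138-5p, miR-218-5p, miR-488-3p and miR-598-3p) and 0 were lower, against 25.5% higher and 25.9% lower of all. The split of all calls depended on the scaling. Once totals excluded miR-148a-3p, 59.3% of all calls were higher in TI and 65.7% in TIM, where the values above correspond to 47.4% and 49.6%, and without the TMM factor 59.1% were higher in TIM. The median log2 fold change of the 13 was 1.41 in TI and 1.16 in TIM, against -0.01 and 0.18 for all tested miRNAs. Without AG library 1, 3 of the 13 were higher in TI and 3 in TIM. Without AG library 2 or without TIM library 1, 4 were higher in TIM. Without TI library 5 or 7, 6 were higher in TI. Without TI library 6, 6 were higher and 1 (miR-383-5p) was lower in TI, and without TI library 3, 5 were higher and 1 (miR-873a-5p) was lower. The list was chosen with earlier results of these data known.

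The most abundant of them was miR-218-5p, a miRNA of motor neurons. It measured 2535, 6678 and 7540.2 CPM in AG, while its lowest, median and highest values were 39876, 62170 and 77478 CPM in TI and 27453, 48025 and 61319 CPM in TIM. Its groups of tumor and AG libraries did not overlap, and it rose by 3.53 on the log2 scale in TI (SE 0.35) and by 3.11 in TIM (SE 0.34). These differences are a description, since the list was chosen with earlier results of these data known. miR-488-3p rose from 55.5 ± 25.1 CPM in AG to 337 ± 115 CPM in TI and 228 ± 68.2 CPM in TIM (mean ± SD). miR-138-5p, known from dendrites, rose from 19.0 ± 10.98 CPM in AG to 93.0 ± 51.8 CPM in TI and 118 ± 104 CPM in TIM (mean ± SD). Not all neuronal miRNAs were higher, as miR-132-3p, an activity-regulated miRNA, had log2 fold changes of 0.80 in TI and 0.46 in TIM and did not pass (adjusted p = 0.41 and 0.65 from limma). Likewise, miR-383-5p had values of -2.20 in TI and -0.62 in TIM (adjusted p = 0.082 and 0.64 from limma). Between TIM and TI, 0 of the 13 passed in limma and 0 in edgeR, 1 (miR-128-3p) passed in DESeq2, and 3 had an unadjusted p under 0.05 in limma.

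The miRNAs whose levels followed the arms most closely were sought among the 391 tested miRNAs that averaged 10 CPM or more in tumors, by Pearson's r of log2(CPM + 1) over the 15 tumor libraries. All miRNAs of a library share its scaling factor and both tumor types are included, so r is given as a description. For miR-124-3p these were miR-666-5p (r = 0.81), miR-138-5p (0.80), miR-361-5p (0.78), miR-326-3p (0.77) and miR-3099-3p (0.75). Their r with miR-124-3p was between 0.58 and 0.82 within TI and between 0.78 and 0.92 within TIM. One of the 5, miR-138-5p, belongs to the 13 neuron-enriched miRNAs above. miR-326-3p averaged 34.7 CPM in AG, 31.8 CPM in TI and 42.9 CPM in TIM, whereas the others of the 5 averaged more in both tumor types than in AG. Negative r reached -0.84 (miR-15b-3p) and -0.82 (miR-16-1-3p), larger in size than the positive ones.

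For miR-9-5p they were miR-20a-5p (r = 0.76), miR-17-5p (0.76), miR-32-5p (0.76), miR-92a-3p (0.76) and miR-93-5p (0.75). miR-17-5p, miR-20a-5p and miR-92a-3p are encoded in the miR-17/92 cluster, which promotes proliferation, and miR-93-5p in a paralogous cluster. Which hairpins their reads came from was not examined. The r of all these miRNAs, miR-32-5p included, with miR-9-5p was between 0.66 and 0.74 within TI and between 0.79 and 0.85 within TIM. miR-32-5p averaged 69.5 CPM in AG, 30.1 CPM in TI and 32.9 CPM in TIM, whereas the others averaged more in both tumor types than in AG. Negative r reached -0.77 (miR-194-5p) and -0.71 (miR-27a-3p). In TIM library 5, which was lowest of the TIM libraries in miR-9-5p, miR-20a-5p was at 33.7 CPM, its lowest level of any tumor library, whereas TIM averaged 585 ± 493 CPM and TI 445 ± 321 CPM (mean ± SD).

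**Figure D5:**
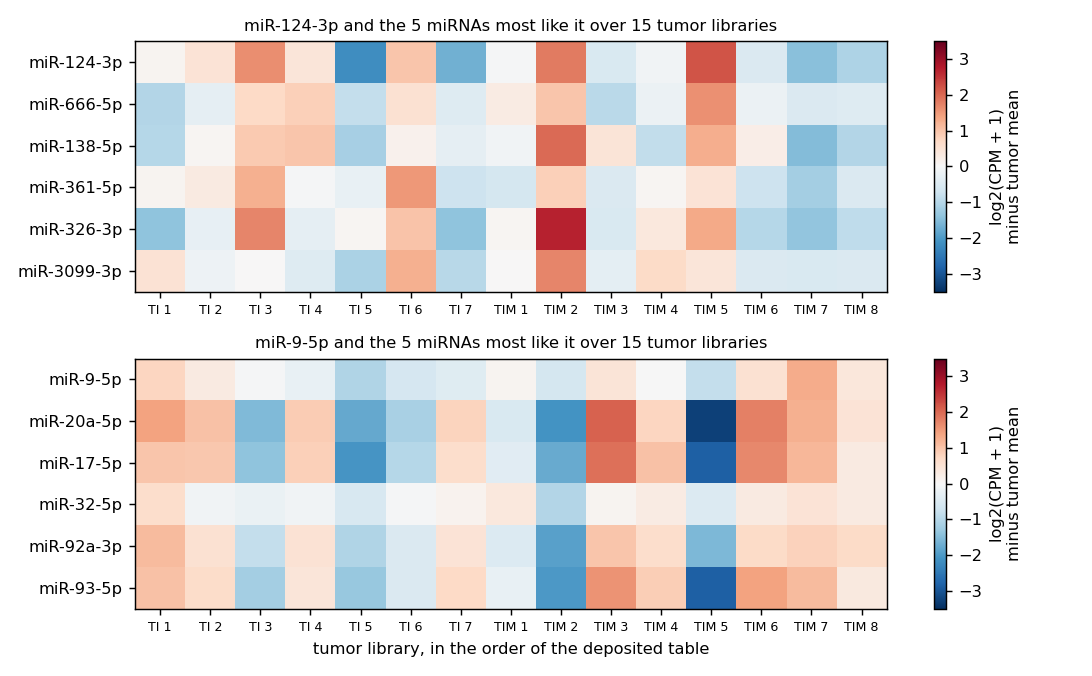
Level of miR-124-3p (top) and miR-9-5p (bottom) and of the 5 miRNAs most like each, as log2(CPM + 1) minus the mean over 15 tumor libraries (color, red above and blue below the mean), with libraries in columns. TIM libraries 2 and 5 are red for miR-124-3p and miR-666-5p and blue for miR-9-5p and miR-20a-5p.

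Rows of closely related names were also inspected, chosen after their values were seen. miR-9b is annotated on the opposite strand of the Mir9-1 hairpin (Gm25641, chr3:88215613-88215670), and its arms are shown because they pair with and resemble those of miR-9, with the seed in capitals.
miR-9b-5p: uUCGGUUAucuagcuuuauga
miR-9b-3p: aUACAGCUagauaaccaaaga
All 21 bases of miR-9b-3p are complementary to miR-9-5p, while miR-9b-5p matches miR-9-5p on the same strand in 19 of 21 bases. miR-9b-5p had 1, 4 and 1 reads in AG, 0 to 1.90 CPM in TI and 0.0447 to 3.14 CPM in TIM. It thus stayed far below miR-9-5p, and it had 0 reads in TI library 5 and 1 read in TIM library 5, the libraries lowest in miR-9-5p of their group. miR-9b-3p reached at most 4 reads in any library. miR-124b-3p, annotated within the Mir124a-2 hairpin, had 0 to 1.15 CPM. Whether reads of miR-9-5p with mismatches contribute to miR-9b-5p was not tested.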

How the data were processed

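Small RNA libraries of 3 adrenal glands and 15 tumors were sequenced. The labels name TRIzol for RNA extraction, whereas the study's methods name the Qiagen AllPrep kit for tumors and organs. Per the labels, the submitters' processing notes name cutadapt 2.8, Bowtie2 2.3.5.1, mm10, featureCounts 2.0.0 and edgeR 3.40. The values deposited by the authors are a signal per miRNA and library, namely CPM on the library total multiplied by the TMM factor. A further 9 columns with the log2 fold changes, p-values and FDR of the authors' comparisons were not used. Of the 1966 miRNAs, 335 were at 0 in every library.

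Differences were tested with limma 3.58.1 in R 4.3.3 (lmFit and eBayes with trend) on log2(CPM + 1), for the 726 miRNAs that reached 1 CPM in 3 or more libraries, all 18 libraries in one model, Benjamini-Hochberg adjustment and a threshold of 0.05. Ratios and correlations were tested with exact two-sided permutation tests that double the smaller tail (Python 3.11.15, numpy 2.4.6, pandas 2.3.3, scipy 1.17.1). Each CPM value above 0 was a whole multiple of that of 1 read (100%, tolerance 0.01 read), and the reads so recovered entered edgeR 4.0.16 and DESeq2 1.42.0 as alternatives. The other alternatives were pseudocounts of 0.1 and 5, other scalings, no filter or one of 10 CPM, models of 2 groups and each library left out. All fits were tested on simulated data. Of the 52 pairs of libraries within a group, none was identical or agreed within sampling noise.

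The miRNAs named are the 4 arms, any miRNA sharing the seed of a miR-9 arm (no miR-124 sequence was used here), 13 neuron-enriched miRNAs, marker miRNAs of other cells, the 5 miRNAs most like miR-124-3p and miR-9-5p each, and miR-148a-3p. miR-9b-5p, miR-9b-3p and miR-124b-3p were added after their values were seen. The members and lists were chosen with earlier results of these data known. The comparisons of TI and of TIM with AG share the AG libraries.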

Additional observations from a re-analysis of the deposited data

Results flagged for a closer look

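Among 40 sets of values (the 4 arms, their ratios and the 13 neuron-enriched miRNAs in TI and in TIM), Dixon's test for 1 library far from its group singled out 2, and 2.0 are expected by chance at 1 in 20. miR-488-3p was low in TI library 5, at 132 CPM where the other 6 TI libraries had 266 to 438 CPM. On log2(CPM + 1), the scale of the test, the gap was 0.58 of the group's whole range. TI library 5 was also the lowest of TI for miR-124-3p, miR-124-5p, miR-9-5p and miR-9-3p. miR-873a-5p had 41 reads (3.61 CPM) in TI library 3 and 0 reads in the other 6 TI libraries, so that the gap was 1.0 of the range. The same library had the highest miR-124-3p of TI, at 493 CPM. None of the 4 arms was singled out in TI or TIM.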

How the results depend on the processing

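Between TIM and TI, miR-124-3p turned to -0.021 with DESeq2, was 0.62 without the TMM factor and ranged from -0.29 to 0.35 when 1 library was left out. miR-124-5p passed without the TMM factor (1.38). miR-9-5p was 0.90 without it (adjusted p = 0.053 from limma) and ranged from 0.18 to 0.50 with 1 library left out. miR-9-3p turned to 0.44 without the TMM factor and ranged from -0.32 to 0.075 with 1 library left out. None of the 4 arms passed with any library left out. The number of miRNAs called, 38, became 21 with a pseudocount of 5, 17 with a filter of 10 CPM, 23 with 2 groups in the model, 3 with edgeR, 123 with DESeq2, 155 without the TMM factor and 24 to 72 with 1 library left out. Of these calls 65.8% were higher in TIM, 89.0% without the TMM factor, 50.9% with median ratio scaling and 45.5% with DESeq2. For TIM against AG, 373 became 242 to 381, with 242 without AG library 1. With 1 library left out, the log2 ratio of miR-9-5p to miR-9-3p ranged from 0.38 to 0.52, that of miR-124-3p to miR-124-5p from -1.18 to -0.32 and that of miR-124-3p to miR-9-5p from -0.72 to 0.11, positive only without TIM library 7. Without the TMM factor, r within TIM was -0.54 for miR-124-3p with miR-9-5p and 0.17 for the arms of miR-124. In TI the latter ran from -0.42 to 0.43 with 1 library left out. The cause of these changes was not tested. Against AG, all 4 arms were higher under every alternative run, and relative to the median of all miRNAs as well. The log2 difference of miR-124-5p spanned 1.505 to 7.19 (TI) and 2.08 to 7.76 (TIM) over pseudocounts and tools, since AG had 5 reads. Depth limits miR-124-5p in AG, miR-9b, miR-124b-3p and miR-873a-5p. No paired analysis was possible because no column could be tied to a mouse or replicate.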
